A study of Homo sapiens with 8 samples.

Results

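Polypyrimidine tract binding protein (PTB) peaks were examined along 8 human genes whose mRNAs have been linked to PTB through internal ribosome entry or untranslated regions: APAF1, BAG1, CDKN1B, MYC, HIF1A, VEGFA, IRF2 and VIM. Every deposited peak that overlapped one of these genes by at least 1 nt on the gene's own strand was taken, with gene positions fixed in hg19. The 8 gene intervals together span 278.119 kb and held 173 of the 266317 deposited peaks.

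PTB is a nuclear and cytoplasmic RNA-binding protein with RNA recognition motifs that contact short pyrimidine runs, and it is best known for repressing exons during splicing. In the cytoplasm it also binds untranslated regions, where it can favour translation from an internal ribosome entry site (IRES), a structured stretch of mRNA that recruits ribosomes without the cap, or change the stability of an mRNA. IRES-driven translation has been described for genes of apoptosis, growth and hypoxia, whose proteins are made under stress when cap-dependent translation is low.

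The peaks come from GoldCLIP, a gel-free form of crosslinking and immunoprecipitation (CLIP), in which protein-bound RNA is recovered from cells and sequenced. The host was the human embryonic kidney line 293T, grown under puromycin and carrying a transgene for PTB or for yellow fluorescent protein (YFP), each fused to the Halo tag that bonds covalently to a bead. The 4 groups of 2 samples were Halo-PTB crosslinked with UVA, Halo-PTB crosslinked with UVC, Halo-PTB without UV and Halo-YFP crosslinked with UVC. One more list, made by the submitters from a published PTB iCLIP study whose cells are not named in the series text, is called iCLIP here. The tagged PTB was expressed from a transgene, and the labels give neither its promoter nor its level relative to the cell's own PTB.

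Each group has 1 list in which its replicates cannot be separated. No spread between replicates and no test between groups can therefore be given, and differences have no replicate check. The lists hold from 2136 peaks (YFP) to 118434 peaks (PTB UVC), and the number of reads behind them is unknown. Intervals below are exact 95% intervals for counting error alone, and they take each peak as a separate event although neighbouring pieces of 1 site are not.

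All peaks in these genes lay on the sense strand. The opposite strand of the same intervals held 0 peaks in every one of the 5 lists. The PTB UVA list had 66 peaks in the 8 genes (0.0788% of that list, interval 0.061 to 0.1), the PTB UVC list 71 (0.0599%, interval 0.0468 to 0.0756) and the iCLIP list 31 (0.0533%, interval 0.0362 to 0.0756). PTB without UV had 5 peaks (0.131%, interval 0.0426 to 0.306), all of them in VIM, and YFP had 0 of 2136 (interval 0 to 0.173%). The YFP interval holds the shares of the PTB UVA, PTB UVC and iCLIP lists. With so few peaks, the empty YFP list cannot show that its share in these genes was lower than theirs. PTB UVA peaks occurred in 8 of the 8 genes, PTB UVC peaks in 7 and iCLIP peaks in 6. Outside VIM, no control list held a peak in any of these genes.

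**Figure D1:**
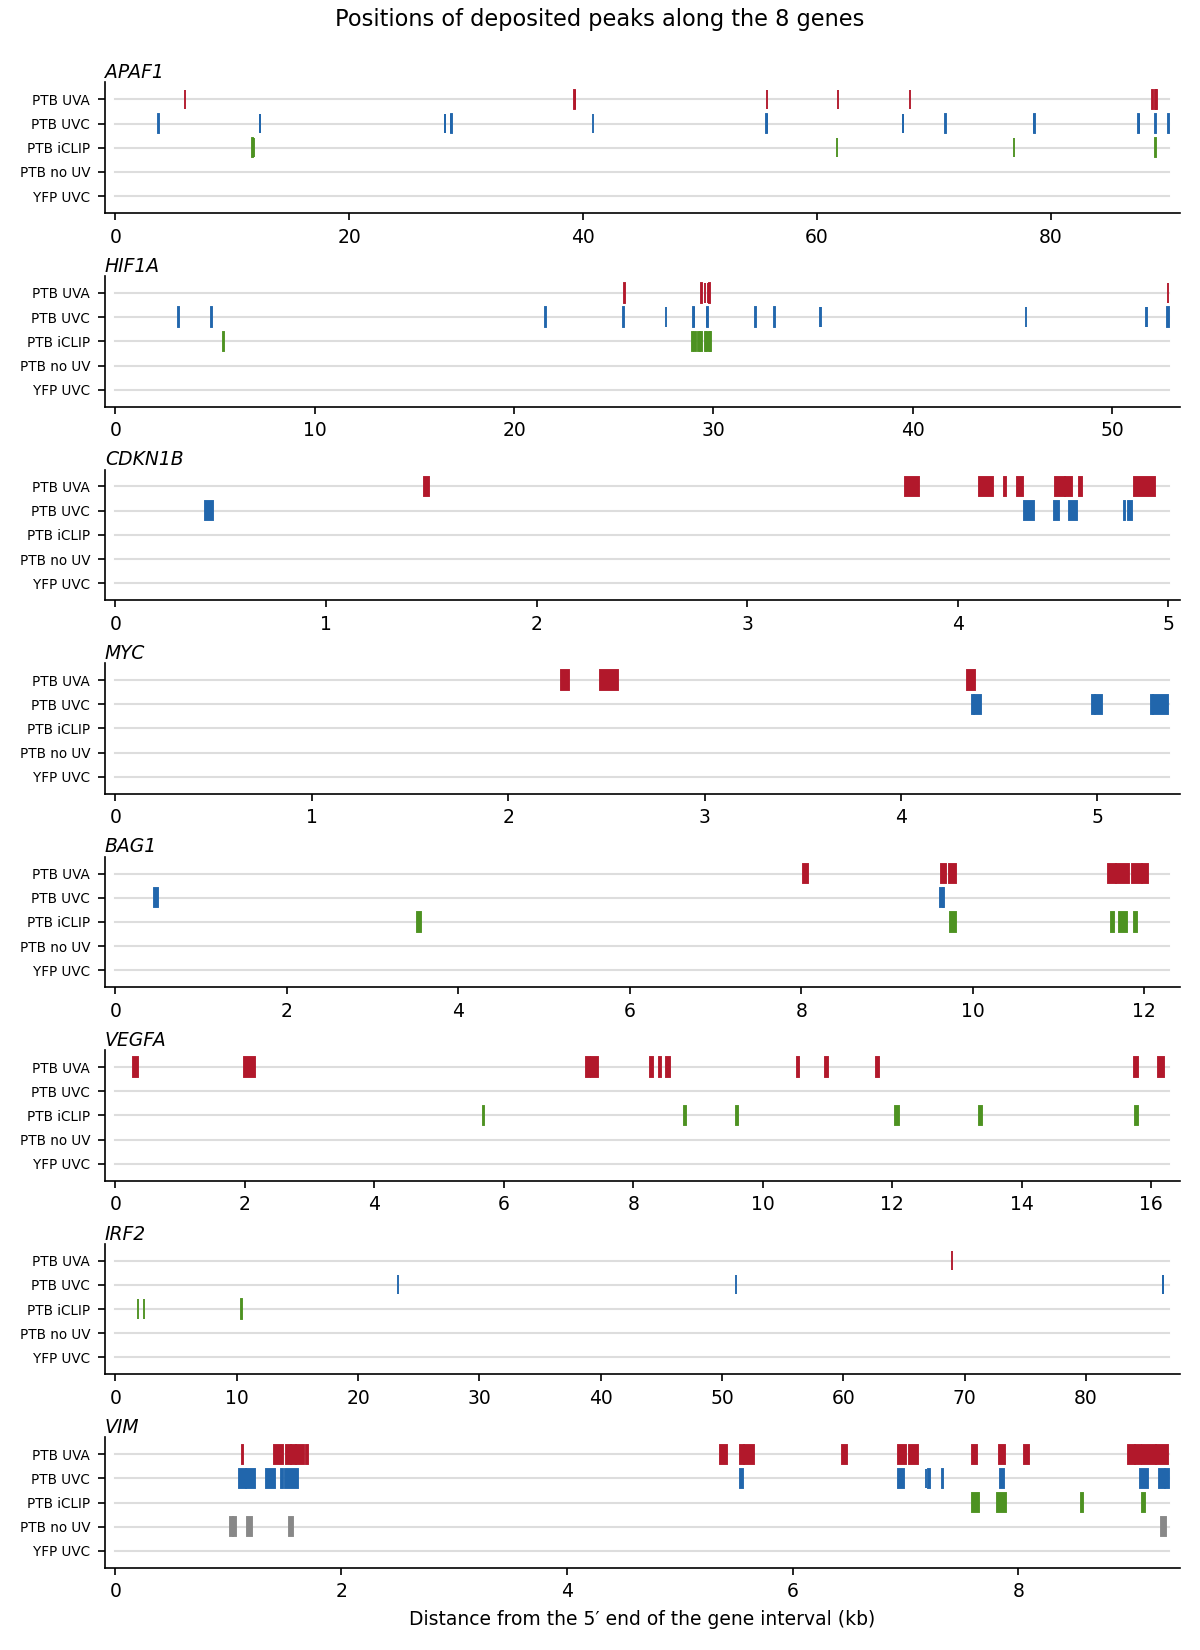
Deposited peaks along each gene, drawn from the 5′ end of the gene interval (0 kb) to its 3′ end; each panel has its own scale, each row is 1 list, and narrow peaks are drawn at a minimum line width. Peaks of PTB without UV appear in VIM alone, the YFP row is empty throughout, VEGFA has no PTB UVC peak, and CDKN1B, MYC and BAG1 carry most of their peaks toward the 3′ end.

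APAF1 and BAG1 act in cell death. APAF1 encodes the scaffold of the apoptosome, which activates caspases after cytochrome c leaves mitochondria, and its IRES has been reported to need PTB. APAF1 (chromosome 12, 99039078 to 99129211, plus strand) held 9 PTB UVA peaks, 20 PTB UVC peaks and 5 iCLIP peaks, against 0 in both controls. The deposited score of a peak, which rises as the authors' p-value falls, ranks peaks within a list. The UVA peaks scored 122 to 780, all 9 at or above the UVA list's median of 92. The UVC peaks were more numerous and stood lower in their list: they scored 13 to 39, with a median of 20.5 beside 19 over the whole UVC list.

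One APAF1 site stood in all 3 PTB lists. It lay on chromosome 12 from 99127989 to 99128091, 1120 nt short of the 3′ end of the gene interval. The highest-scoring APAF1 peaks of UVA (99128017 to 99128086, score 780) and of iCLIP (99127989 to 99128065, score 579) fell there, together with a UVC peak of score 35 (99128033 to 99128091). A stretch of 33 nt, from 99128033 to 99128065, was covered by all 3. The highest-scoring UVC peak, at score 39, was elsewhere: it was a 10 nt interval from 99094770 to 99094779, directly followed by a 41 nt peak that overlapped a UVA peak by 27 nt.

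BAG1 encodes a co-chaperone of HSP70 proteins that protects cells from death, and PTB together with a poly(C) binding protein has been described as a factor for its IRES. BAG1 (chromosome 9, 33252470 to 33264761, minus strand) held 7 UVA peaks, 3 UVC peaks and 5 iCLIP peaks. UVA and iCLIP met at 4 BAG1 sites, 3 of them within 621 nt of the 3′ end, and the UVC list had no peak at any of these 4. The top UVA peak (33253091 to 33253184, score 186) and the top iCLIP peak (33252961 to 33253054, score 70) belong to this 3′ group. Over the whole lists 13.6% of UVA and 9.59% of iCLIP peaks met a UVC peak, so the absence of UVC at 4 sites does not set BAG1 apart. The top UVC peak lay at the other end of the gene, 449 nt from the 5′ end (33264263 to 33264312, score 31). No other list had a peak there, as is usual: 12.1% of all UVC peaks met another PTB list. The remaining UVC peaks of BAG1, which touch each other, overlapped a UVA peak by 34 nt at 33255078 to 33255146.

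The genes of growth and the cell cycle were CDKN1B and MYC. CDKN1B encodes p27, an inhibitor of cyclin-dependent kinases that holds cells before S phase, and PTB has been reported to bind its 5′ untranslated region. CDKN1B (chromosome 12, 12870302 to 12875305, plus strand) held 9 UVA peaks and 6 UVC peaks, and 0 in iCLIP and both controls. In a stretch of 833 nt ending 69 nt before the 3′ end of the interval lay 12 of its 15 PTB peaks (7 UVA and 5 UVC). UVA and UVC overlapped at 2 sites in that stretch, from 12874759 to 12874808 and from 12874809 to 12874867. The top UVA peak lay upstream of both, from 12874053 to 12874115. It scored 99 and was the only CDKN1B peak of UVA at or above that list's median. The top UVC peak (12874759 to 12874782, score 19) lay in the first of the shared sites. No other CDKN1B peak of UVC reached that list's median of 19, so most peaks of the stretch are low in their lists. One UVC peak, of score 14, lay 424 nt from the 5′ end (12870726 to 12870763).

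MYC encodes a transcription factor that drives cell growth, and PTB is among the proteins reported to act on its IRES. MYC (chromosome 8, 128748315 to 128753680, plus strand) held 3 UVA peaks and 6 UVC peaks, and 0 in iCLIP and both controls. The first peak began 2267 nt from the 5′ end of the interval. The top UVA peak (128750784 to 128750875) scored 34, and none of the 3 UVA peaks reached the list's median. All 6 UVC peaks lay in the last 1000 nt and formed 3 sites once peaks within 20 nt of each other were merged. The strongest, of score 59, ended 7 nt before the 3′ end (128753597 to 128753673). UVA and UVC met at 1 site, from 128752651 to 128752722, with 15 nt in common.

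**Figure D2:**
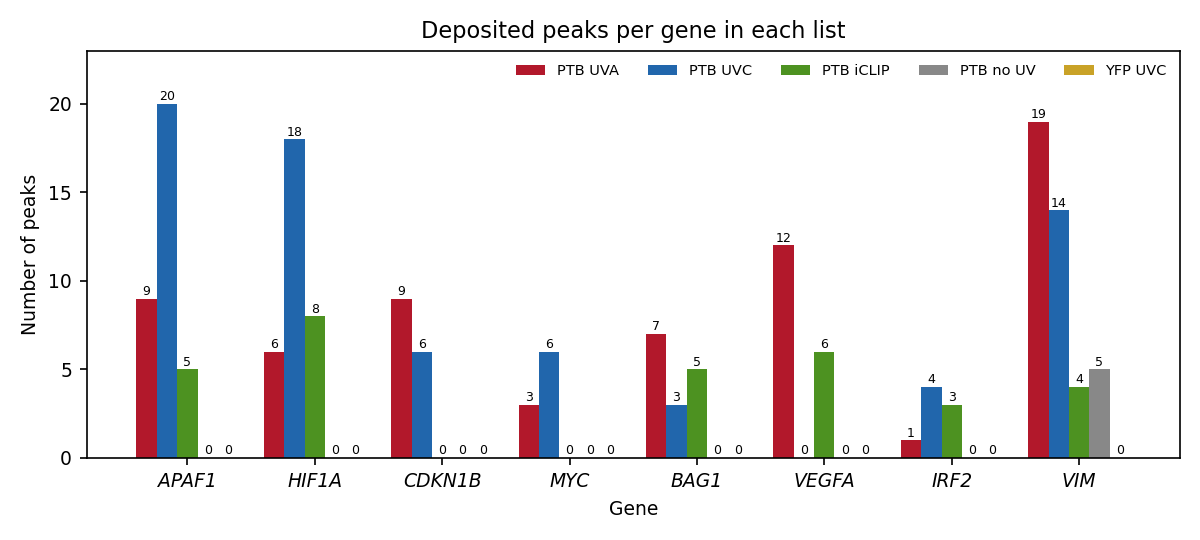
Number of deposited peaks in each gene, with 1 bar for each list in the order of the legend and the count above the bar; there are no replicates and so no error bars. PTB UVA has fewer peaks than PTB UVC in APAF1 (9 against 20) and HIF1A (6 against 18), and more in VEGFA (12 against 0), VIM (19 against 14) and BAG1 (7 against 3).

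Hypoxia was represented by a transcription factor and one of its targets. HIF1A encodes the oxygen-regulated subunit of hypoxia-inducible factor, and PTB has been reported to raise the activity of its IRES. HIF1A (chromosome 14, 62162119 to 62214977, plus strand) held 6 UVA, 18 UVC and 8 iCLIP peaks. Nearly all of them ranked in the upper part of their lists: 6 of 6 UVA peaks, 18 of 18 UVC peaks and 7 of 8 iCLIP peaks were at or above the list's median score (92, 19 and 47), where the whole lists have 50.1%, 50.9% and 50.7%.

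The middle of HIF1A held the densest group of peaks. A stretch of 958 nt on chromosome 14, from 62191029 to 62191986 and more than 22 kb from the 3′ end, contained 15 of the 32 PTB peaks, of which 4 were UVA, 4 UVC and 7 iCLIP. The top iCLIP peak (62191739 to 62191928, score 457, 190 nt wide) lay in it and met both UVA and UVC peaks. At that site the UVA and UVC peaks did not touch each other: each overlapped the iCLIP peak at a different part, and no nucleotide was covered by all 3 lists. The top UVA peak stood outside the stretch, from 62187624 to 62187665 with score 528. It overlapped no peak of another list, as is usual: 29.3% of all UVA peaks met another PTB list. At the far 3′ end, a UVA peak of score 277 shared 34 nt with UVC peaks, the top one of which (62214905 to 62214938, score 116) was nested in a wider UVC peak of score 67. This site ended 20 nt before the end of the interval.

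VEGFA encodes vascular endothelial growth factor A, the main signal for blood vessel growth under low oxygen, and is a transcriptional target of hypoxia-inducible factor. VEGFA (chromosome 6, 43737946 to 43754223, plus strand) held 12 UVA peaks and 6 iCLIP peaks, against 0 in both controls. It was the only one of the 8 genes with no peak in the UVC list. The UVA peaks were wide and low: their widths ran from 38 to 175 nt with a median of 60.5 nt, against 38 nt over the list, and their scores ran from 14 to 77, so that 0 of 12 reached the list's median. None of the 6 iCLIP peaks reached its list's median either. UVA and iCLIP met once, from 43753686 to 43753747, 476 nt from the 3′ end, and this was also the top UVA peak (score 77). The top iCLIP peak, from 43749985 to 43750045, scored 39. The first UVA peak, 267 nt from the 5′ end (43738213 to 43738290), scored 14 and was the lowest in the gene.

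IRF2 encodes interferon regulatory factor 2, which competes with IRF1 at interferon-responsive promoters, and its 5′ untranslated region has been described as a PTB-bound IRES. IRF2 (chromosome 4, 185308876 to 185395726, minus strand) held 1 UVA, 4 UVC and 3 iCLIP peaks, the fewest of the 8 genes over 86.851 kb. None of its 8 peaks overlapped a peak of another list. Over the whole lists 29.3% of UVA, 12.1% of UVC and 29.7% of iCLIP peaks met another PTB list, so 8 peaks are too few to set IRF2 apart. The UVA peak lay 17902 nt from the 3′ end (185326778 to 185326797, score 46). The top UVC peak, of 11 nt and score 23, lay 496 nt from the 3′ end (185309372 to 185309382) beside a touching peak of 39 nt. The iCLIP peaks lay between 1846 and 10393 nt from the 5′ end, with a top score of 63 (185385298 to 185385333).

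VIM encodes vimentin, an intermediate filament protein of the cytoskeleton and a very abundant transcript in many cultured cells. VIM (chromosome 10, 17270258 to 17279592, plus strand) held 19 UVA, 14 UVC and 4 iCLIP peaks, against 5 in PTB without UV and 0 in YFP. UVA peaks covered 12.0% of the gene interval and UVC peaks 7.12%, more than in any other of the 8 genes. The peak from 17279348 to 17279476 had the highest UVA score of all the genes (993), and only 3.4% of the UVA list scored as high. The highest UVC score, 414, belonged to the peak from 17279503 to 17279559, 33 nt from the 3′ end. The top iCLIP peak scored 67 (17278068 to 17278148).

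VIM had 2 sites in all 3 PTB lists. The first, from 17278068 to 17278148, holds the top iCLIP peak, with 32 nt common to the 3 lists (17278095 to 17278126). The second, from 17279291 to 17279476, had 25 common nt (17279351 to 17279375) and ended 116 nt before the 3′ end. Those 25 nt are the whole of a weak iCLIP peak, with a score of 13 against a median of 47 in its list. Neither lay on a control peak, though the second ended within 50 nt of one. A further 6 VIM sites were shared by UVA and UVC alone, against 2 in CDKN1B and at most 1 in each other gene. Of these 6, the sites from 17271760 to 17271929 and from 17279477 to 17279586 overlapped a peak found without UV.

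VIM also carried the whole of the control signal. PTB without UV had peaks at 17271275 to 17271301, 17271302 to 17271324, 17271422 to 17271465, 17271798 to 17271831 and 17279520 to 17279567, with scores of 54, 55, 27, 36 and 15. The last of them lay under the top UVC peak. Of the VIM peaks, 3 of 19 UVA and 4 of 14 UVC overlapped a peak found without UV, and 0 of 4 iCLIP peaks did. The UVA peaks were those from 17271766 to 17271817, from 17271818 to 17271857 and from 17279477 to 17279580, with scores of 425, 161 and 462. The UVC peaks were those from 17271419 to 17271497, from 17271760 to 17271876, from 17279503 to 17279559 and from 17279560 to 17279586, with scores of 180, 97, 414 and 386. The highest-scoring UVC peak of VIM was thus at a control position. The highest-scoring UVA peak (17279348 to 17279476) did not overlap a control peak, but it lay within 50 nt of the same one. It also touches the UVA peak from 17279477 to 17279580, which was on that control peak. The control peak there is weak, with a score of 15 against a median of 17 in its list, and with peaks at or above each list's median alone 2 UVC peaks lay on a control peak. Over the 8 genes this is 3 of 66 UVA peaks, where 1.04% of the whole list met a control peak, 4 of 71 UVC peaks (1.01% of the list) and 0 of 31 iCLIP peaks (0.601% of the list).

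**Figure D3:**
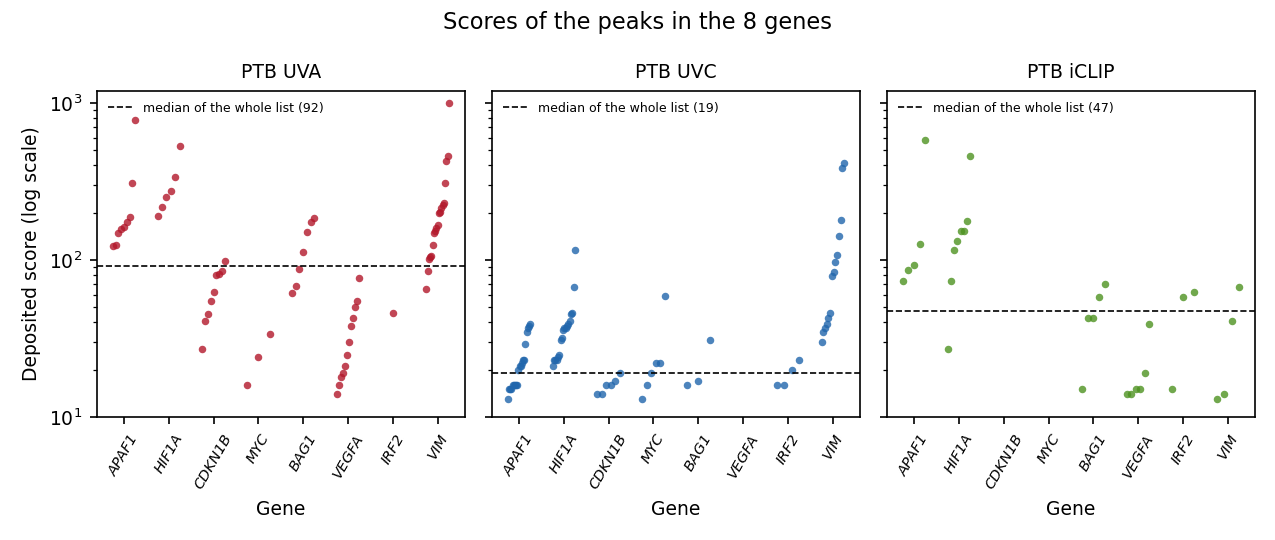
Deposited score of each peak (log axis) by gene for the 3 PTB lists, each point being 1 peak and the dashed line the median score of the whole list (92, 19 and 47). HIF1A points lie mostly above the line in all 3 lists, VIM points do so in UVA and UVC but not in iCLIP (1 of 4), and all VEGFA points lie below it; scores cannot be compared between lists.

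Placed on a common scale, the genes fell in a similar but not identical order in UVA and UVC. In UVA, the highest density was in VIM at 2.04 peaks per kb of gene interval (exact Poisson interval 1.23 to 3.18) and CDKN1B at 1.8 (0.822 to 3.41). VEGFA followed at 0.737 (0.381 to 1.29), BAG1 at 0.569 (0.229 to 1.17) and MYC at 0.559 (0.115 to 1.63). HIF1A at 0.114 (0.0417 to 0.247), APAF1 at 0.0999 (0.0457 to 0.19) and IRF2 at 0.0115 (0.000292 to 0.0642) were lowest. Each gene's interval overlapped that of its neighbour in the order, and differences between neighbours were not tested.

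In UVC, VIM (1.5 peaks per kb, 0.82 to 2.52), CDKN1B (1.2, 0.44 to 2.61) and MYC (1.12, 0.41 to 2.43) were highest. HIF1A (0.341, 0.202 to 0.538), BAG1 (0.244, 0.0503 to 0.713) and APAF1 (0.222, 0.136 to 0.343) followed, then IRF2 (0.0461, 0.0125 to 0.118), and VEGFA had none. Many of these UVC peaks are touching pieces: after merging peaks within 20 nt, MYC was at 0.559 sites per kb, APAF1 at 0.144 and IRF2 at 0.0345. The long genes at the low end are mostly intron by length. Exons were not separated from introns, since no hg19 annotation was used here.

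The balance of UVA and UVC differed from gene to gene. Over the whole lists there were 0.707 UVA peaks for each UVC peak, and over the 8 genes 0.93. The UVC list had 72809 peaks on the plus strand and 45625 on the minus strand, and the UVA list 42525 and 41200. The whole-list ratio is therefore lower on the plus strand than on the minus strand, where BAG1 and IRF2 lie. BAG1 (2.33), CDKN1B (1.5) and VIM (1.36) had more UVA than UVC peaks, as did VEGFA, where no ratio can be formed. MYC (0.5), APAF1 (0.45), HIF1A (0.333) and IRF2 (0.25) had fewer. Merging peaks within 20 nt put the MYC ratio at 1.0, with 3 sites in each list, and turned the ratio over the 8 genes to 1.08, beside 0.871 over the whole lists. The ratios of the other genes with UVC peaks stayed on the same side of 1. These are ratios of small counts from lists of unknown depth and carry no test.

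Strong peaks were unevenly spread over the genes. Among the member peaks, 36 of 66 in UVA scored 100 or more (54.5%, against 47.6% of the whole list), 6 of 71 in UVC (8.45%, against 1.95%) and 8 of 31 in iCLIP (25.8%, against 24.3%). In UVC, 5 of the 6 were in VIM and the other was the HIF1A peak at the 3′ end. The VIM peaks among them with scores of 180, 414 and 386 overlapped peaks found without UV. Without VIM, 1 of 57 UVC peaks and 19 of 47 UVA peaks reached 100. The UVA peaks of 100 or more were confined to VIM (17), APAF1 (9), HIF1A (6) and BAG1 (4).

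The 3 PTB lists were then set against each other, to ask how often the same positions came up. Of the UVA member peaks, 18 of 66 (27.3%, interval 17.0 to 39.6) overlapped a UVC peak, where 13.6% of all UVA peaks did. Of the UVC member peaks, 20 of 71 (28.2%, interval 18.1 to 40.1) overlapped a UVA peak, where 9.61% of all UVC peaks did. VIM supplied 11 of those 18 UVA peaks and 10 of those 20 UVC peaks. Without VIM the shares were 14.9% and 17.5%, the first of them close to the 13.6% of the whole list.

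Shares with iCLIP lay closer to those of the whole lists. Of the UVA member peaks 13 (19.7%, interval 10.9 to 31.3) overlapped an iCLIP peak, where 20.4% of all UVA peaks did, and of the UVC member peaks 6 did (8.45%, interval 3.16 to 17.5, against 5.45% of the list). Seen from iCLIP, 13 of 31 member peaks overlapped UVA (41.9%, interval 24.5 to 60.9, against 25.9% of the list) and 5 overlapped UVC (16.1%, interval 5.45 to 33.7, against 9.59%). All 4 intervals hold the value of the whole list. Peaks that met both other PTB lists numbered 3 of 66 in UVA (4.55%, against 4.72% of the list), 3 of 71 in UVC (4.23%, against 3.01%) and 4 of 31 in iCLIP (12.9%, interval 3.63 to 29.8, against 5.79%), so these too were within counting error of the lists.

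**Figure D4:**
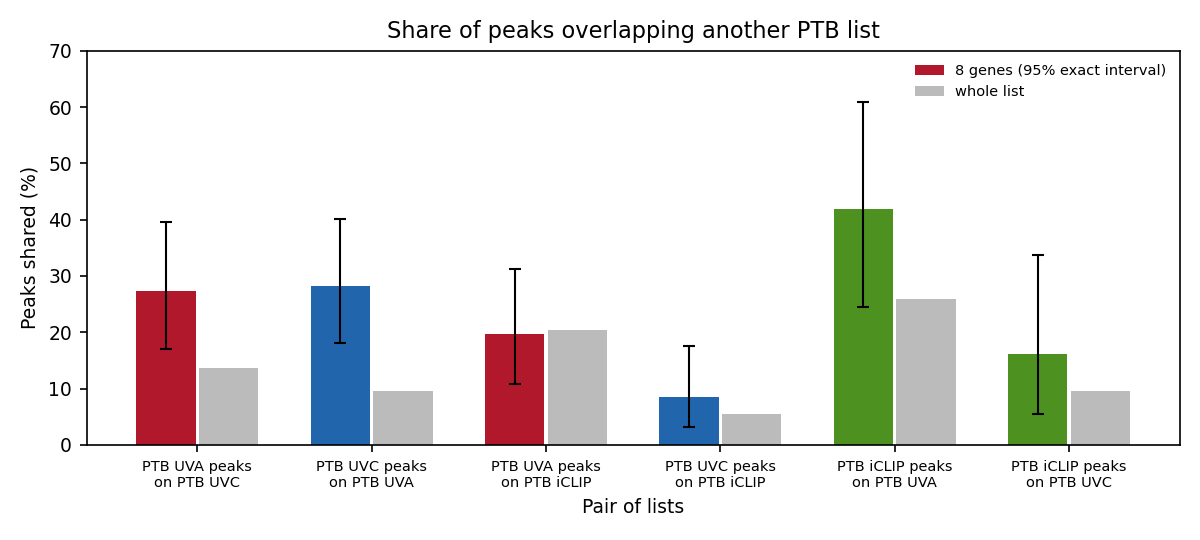
Percent of peaks that overlap a peak of another PTB list by at least 1 nt, for the 8 genes (coloured bars with exact 95% intervals) and for the whole list (grey bars). The intervals for UVA on UVC and UVC on UVA lie above their grey bars (13.6% and 9.61%), and those of the 4 pairs with iCLIP include them.

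Joining overlapping peaks of the 3 PTB lists gave 128 sites in the 8 genes. Of these, 103 came from 1 list, 21 from 2 lists and 4 from all 3. Peaks of 1 list alone are also the common case in the whole lists. Another PTB list was met by 42.4% of UVA, 32.4% of UVC and 45.2% of iCLIP member peaks. Over the whole lists the shares were 29.3%, 12.1% and 29.7%. The sites in 2 lists were 12 of UVA and UVC, 8 of UVA and iCLIP, and 1 of UVC and iCLIP. The 4 sites in all 3 lists were those described above in APAF1, HIF1A and VIM, and 3 of them have nucleotides that all 3 lists cover. BAG1 had the largest number of UVA and iCLIP sites (4), followed by HIF1A (2), and VIM the largest number of UVA and UVC sites (6), followed by CDKN1B (2).

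Because the genes are known for their untranslated regions, the ends of the gene intervals were compared. Exons were not separated from introns, so equal lengths of gene at either end need not hold equal lengths of mRNA or untranslated region. Counting peaks by their midpoint, the last 1000 nt of the 8 intervals held 18 of 66 UVA peaks (27.3%), 19 of 71 UVC peaks (26.8%) and 6 of 31 iCLIP peaks (19.4%). These windows make up 2.88% of the summed length. That share is set mostly by the long genes and is too low for the short ones, such as CDKN1B and MYC. The window is 18.6% of the MYC interval, against 1.11% of APAF1. The distance of the peak shares from 2.88% therefore does not measure an excess at the 3′ end. Over the 3 lists, each of the 8 genes had at least 1 PTB peak in its last 1000 nt, 43 of 168 peaks in all. The first 1000 nt, equally long, held 1 UVA peak (VEGFA), 2 UVC peaks (CDKN1B and BAG1) and 0 iCLIP peaks. Each of these 3 peaks lay on no peak of another list, as is usual: 29.3% of all UVA peaks and 12.1% of all UVC peaks met another PTB list.

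**Figure D5:**
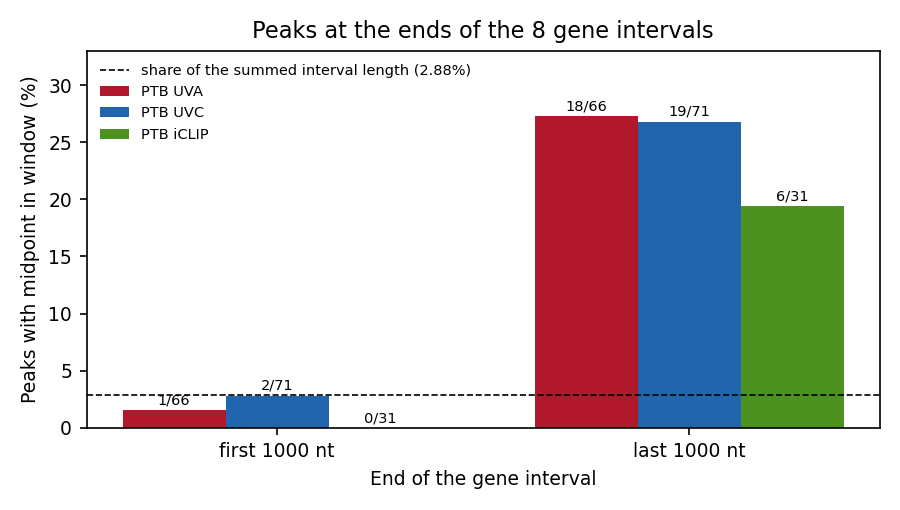
Percent of the peaks in the 8 genes whose midpoint lies in the first or the last 1000 nt of the gene interval, for the 3 PTB lists, with peak numbers above the bars; the dashed line is the share of the summed interval length in such a window (2.88%). The line does not weight genes by their peaks and is too low for the short genes. The last 1000 nt held 18, 19 and 6 peaks, and the first 1000 nt held 1, 2 and 0.

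The genes that supplied these 3′ peaks varied with the list. CDKN1B supplied 7 of the 18 UVA peaks, and VIM and BAG1 4 each. MYC supplied 6 of the 19 UVC peaks, CDKN1B 5 and VIM 3. BAG1 supplied 3 of the 6 iCLIP peaks and VIM 2. Such a window is 18.6% of the short MYC interval and 1.11% of APAF1. Without VIM the last 1000 nt still held 14 UVA, 16 UVC and 4 iCLIP peaks. The window was chosen after the data had been seen, and the same share over all genes was not computed, since no hg19 gene positions beyond these 8 were used.

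In APAF1, HIF1A, MYC and IRF2 no peak of the 3 PTB lists lay in the first 1000 nt. In VIM the closest began 1094 nt from the 5′ end, and a stretch of 617 nt from there held 11 of its 37 PTB peaks. The VIM peaks of PTB without UV began closer, at 1017 and 1044 nt. The RefSeq gene lengths in GRCh38.p14 differ from these intervals by at most 113 nt except for MYC, which is 2152 nt longer there. Distances from the ends of MYC therefore hold for the interval used here.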

How the data were processed

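The deposited data are 5 peak lists, 1 for each of 4 groups of 2 samples and 1 made from published iCLIP. The sources used here do not give the peak caller, its filters or how replicates were combined. Reads were mapped with Bowtie 1.1.2, and hg19 and dm3 were named as builds, per the submitters' processing notes; positions were read as hg19 and written 1-based. Each deposited peak has a score (at most 1000) and a p-value (at most 0.05), both the authors' own, used only to describe and rank peaks within a list. A deposited p-value of 0 with score 0 was given the score 1000; no peak of the 8 genes was of this kind, and none was a repeated interval.

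Same-strand overlap of 1 nt or more assigned peaks to genes and counted shared positions. Shares have exact Clopper-Pearson 95% intervals and densities exact Poisson 95% intervals. Overlap counts equalled those of bedtools 2.31.1 in 12 of 12 pairs of lists, and the code was tested on simulated data. By rule, the text names the highest-scoring peak of each gene and PTB list (ties by width, then position), each site in all 3 PTB lists and the VIM sites on control peaks. Other named peaks, at gene ends or shared between lists, were chosen after their values were seen. The genes, lists and rules were chosen with earlier results of these data known. Other IRES genes and genes of like pattern were not analysed here, since no hg19 annotation was used. Alternatives were merged peaks, repeats counted once, peaks at or above the median score, midpoints inside the interval, the opposite strand, intervals extended by 1000 nt, each gene left out, stricter or looser overlap and, added later, other end windows. Calculations ran in Python 3.11.15, with scipy 1.17.1, pandas 2.3.3 and numpy 2.4.6; figures were drawn in matplotlib 3.10.9.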

Additional observations from a re-analysis of the deposited data

How the results depend on the processing

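No paired analysis was possible because each group is 1 list in which its replicates are not separate, and no replicate could be left out. On the opposite strand every list had 0 peaks in the 8 genes, against 66 (UVA), 71 (UVC), 31 (iCLIP) and 5 (no UV) on the sense strand. Keeping only peaks at or above the list's median score left 37 UVA and 17 iCLIP peaks, and 2 UVC peaks on a control peak in place of 4. Without VIM, the list of PTB without UV had 0 peaks in the remaining genes, 14.9% of UVA peaks lay on UVC and 17.5% of UVC peaks on UVA. Requiring at least 50% of the peak to be covered gave 16.7% for UVA on UVC and 3.23% for iCLIP on UVC. Allowing a control peak within 50 nt raised the UVA peaks near a control to 6. The other 147 recomputed totals and shares stayed within 1.5 times the main count, or within the interval of the main share. Many of them could not move, so the 147 does not measure stability. The YFP counts were 0 throughout, no peak was a repeat, and some genes left out had no peak in the list. For single genes, merging peaks within 20 nt put APAF1 at 13 UVC sites, MYC at 3 UVC sites, HIF1A at 5 iCLIP sites and VIM at 12 UVA sites. End windows of 500 nt held 11 UVA, 13 UVC and 2 iCLIP peaks at the 3′ end and 1, 2 and 0 at the 5′ end; of 2000 nt, 26, 23 and 9 at the 3′ end and 8, 7 and 1 at the 5′ end. Merging put the last 1000 nt at 12 UVA, 12 UVC and 6 iCLIP sites. Depth is unknown, so a gene without a peak in a list may lie below that list's threshold.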

Other observations

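Many PTB UVC peaks in these genes came as a short piece directly followed by a longer one. The UVC list had 16 pairs of touching peaks in the 8 genes (14 on the plus strand, 2 on the minus strand), and in 14 of them the piece at the lower genome coordinate was 10 or 11 nt wide. The UVA list had 8 touching pairs and the iCLIP list 3, and none had such a piece at the lower coordinate. Over the whole UVC list the lower piece was 10 or 11 nt wide in 20419 of 21550 touching pairs on the plus strand (94.8%) and in 2931 of 4070 on the minus strand (72.0%). The upper piece had that width in 11 and 14 pairs. In the UVA list the lower piece had that width in 3.09% of plus-strand and 2.38% of minus-strand pairs, and in the iCLIP list in 5.34% and 3.91%. The short piece thus lay at the lower coordinate on both strands, which is the 5′ side of a plus-strand transcript and the 3′ side of a minus-strand one such as BAG1 or IRF2. Its cause was not tested. The highest-scoring UVC peaks of APAF1 and IRF2 are such pieces, and merging peaks within 20 nt puts APAF1 at 13 UVC sites in place of 20 peaks.

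A second regular shape was a UVC peak of exactly 4 nt. There were 4 in the 8 genes, in HIF1A, CDKN1B and VIM, and 3 of them were followed after a gap of exactly 16 nt by another peak. In the whole UVC list 7175 plus-strand peaks and 1112 minus-strand peaks were 4 nt wide, and 5667 and 956 of them had the next peak of higher coordinate 16 nt away. The UVA list had 218 and 205 peaks of 4 nt, with 7 and 5 such gaps, and the iCLIP list had 247 and 153, with 12 and 3.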
